A study of Drosophila melanogaster with 3 samples.

Results

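Chromosome 4 of Drosophila melanogaster carried 268 of the 15755 HP1 peaks that the study called in embryos, and they were taken as every entry of the peak list placed on that chromosome. The peaks did not form an even layer. They lay in 24 groups separated by stretches of 10 kb or more without any peak, and those 23 stretches together took up 53.1% of the chromosome. Both ends were densely covered, and the distal end held the highest score of the whole list, 220.1.

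Heterochromatin protein 1 (HP1) is a small chromatin protein that recognises a methylated histone tail and is best known for the compact, repeat-rich chromatin around centromeres. It is also part of the protein cap of fly telomeres. Chromosome 4 is the smallest chromosome of the fly and is unusual because active genes lie among repeats along its arm. HP1 is known to bind there together with POF, a protein that coats that chromosome.

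The samples were whole embryos of 8 to 16 h. The strain label is Y cn bw sp. Each value is thus an average over all tissues of the embryo. All samples share 1 genotype. It lists the marker alleles cn[1], bw[1], sp[1] and y[1], the first 2 of which affect eye pigment and the last body pigment. The remaining alleles named are Rh6[1], GstD5[1], MstProx[1], LysC[1], Gr22d[1] and Gr22b[1], with lab[R4.2], CG33964[R4.2] and oc[R3.2]. Chromatin was cross-linked in 1.8% formaldehyde. There was 1 input DNA sample and 2 immunoprecipitated replicates pulled down with an antibody against HP1, a rabbit polyclonal. The labels do not say whether these came from separate collections of embryos.

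The single peak list does not mark replicates. No value below therefore has an error between samples, no difference could be tested, and each is given as a description of this list. Read depth is unknown. The score is the authors' own value for each peak, without a stated definition, and is used here only within the list. Differences of scores are given in its own units, which have no known scale. Positions are in FlyBase release 5, and chromosome 4 is written from its centromeric side, at low positions, to its distal or telomeric side. Its length was taken as the end of the last peak, at position 1351935. No gene annotation or genome of that release was used, so regions are named by position only.

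The 268 peaks covered 265520 bp, which is 19.6% of the chromosome, at 198.2 peaks per Mb. Their median width was 575.5 bp, with quartiles of 344 and 1081 bp and a range of 200 to 11009 bp. Most peaks were thus short, and a few were very wide. The 119 peaks under 500 bp made up 44.4% of the peaks and 14.3% of the covered bases. The 12 peaks of 3000 bp or more made up 4.48% of the peaks and 26.4% of the covered bases.

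Scores on chromosome 4 lay between 6.74 and 220.1. Their quartiles were 13.4 and 33.4 and their median 19.8. A score at or above the upper quartile of the whole list, 34.59, was reached by 64 of the 268 peaks (23.9%), against 25.4% of all peaks in the list. The median of the whole list, 20.96, was reached by 123 (45.9%), against 50.2%. By this measure the chromosome as a whole scored close to the list it belongs to. Its high scores were placed unevenly, as the map of scores along the chromosome shows.

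**Figure D1:**
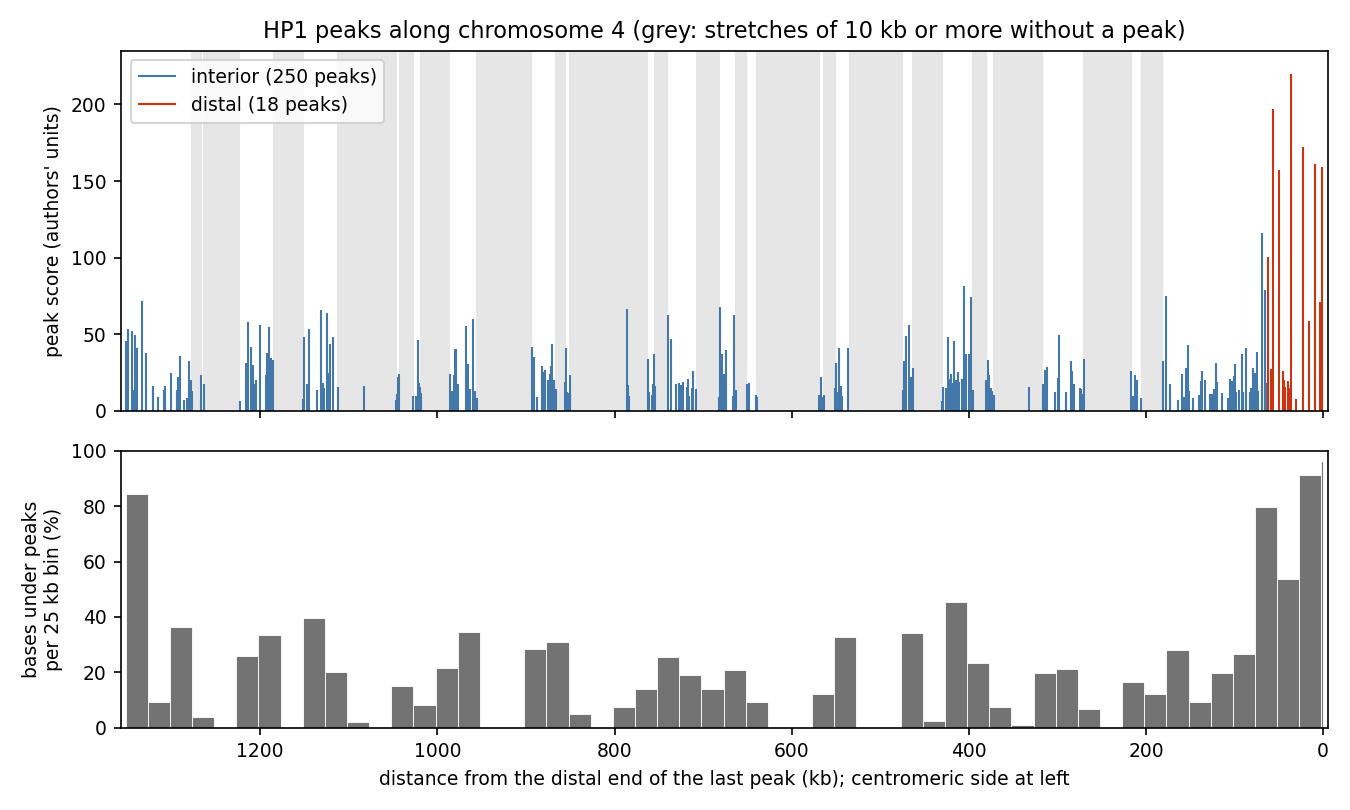
HP1 peaks along chromosome 4 against distance from the distal end of the last peak (kb). Upper panel: each line is 1 peak at its midpoint, its height the authors' score, with 250 interior and 18 distal peaks in different colours and stretches of 10 kb or more without a peak in grey. Lower panel: percent of bases under peaks in each 25 kb bin. The tallest lines and fullest bins stand at the right end, and the first bin at the left end is 84.6% covered.

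Cut into 25 kb bins, the chromosome had 55 bins, the last of them incomplete. No base was covered in 11 bins. In 12 others under 10% of the bases were covered, and in 26 between 10% and 40%. The median bin had 15.1% of its bases covered and held 5 peaks. Only 5 bins were covered over more than 50% of their length, namely the first bin and the last 4. The highest complete bin was that from 1325 to 1350 kb, with 91.4%. Outside the ends, the fullest bin was that from 925 to 950 kb, with 14 peaks, the most of any bin, and 45.6% of its bases covered. The lowest bin that held any covered base was that from 1000 to 1025 kb, with 1 peak and 0.872%.

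Cut into 4 equal parts, the chromosome varied less than between bins. From the centromeric side, the parts held 67, 61, 54 and 86 peaks. Covered bases made up 20.6%, 15.1%, 13.7% and 29.1% of them. Median scores were nearly level, at 20.01, 20.01, 18.6 and 19.8. The last part therefore had more peaks and more covered bases, while its typical peak did not score higher than that of the first.

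Peak-free stretches were the main feature of the interior. The 267 gaps between neighbouring peaks had a median of 854 bp, with quartiles of 302 and 2691 bp and a range of 48 to 69444 bp. Gaps under 1 kb numbered 146 (54.7%), and 226 (84.6%) were under 5 kb. A small number of long gaps made up most of the uncovered sequence. The 23 gaps of 10 kb or more summed to 718349 bp. The 15 of at least 20 kb made up 45.6% of the chromosome and the 5 of at least 50 kb 22.7%.

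**Figure D2:**
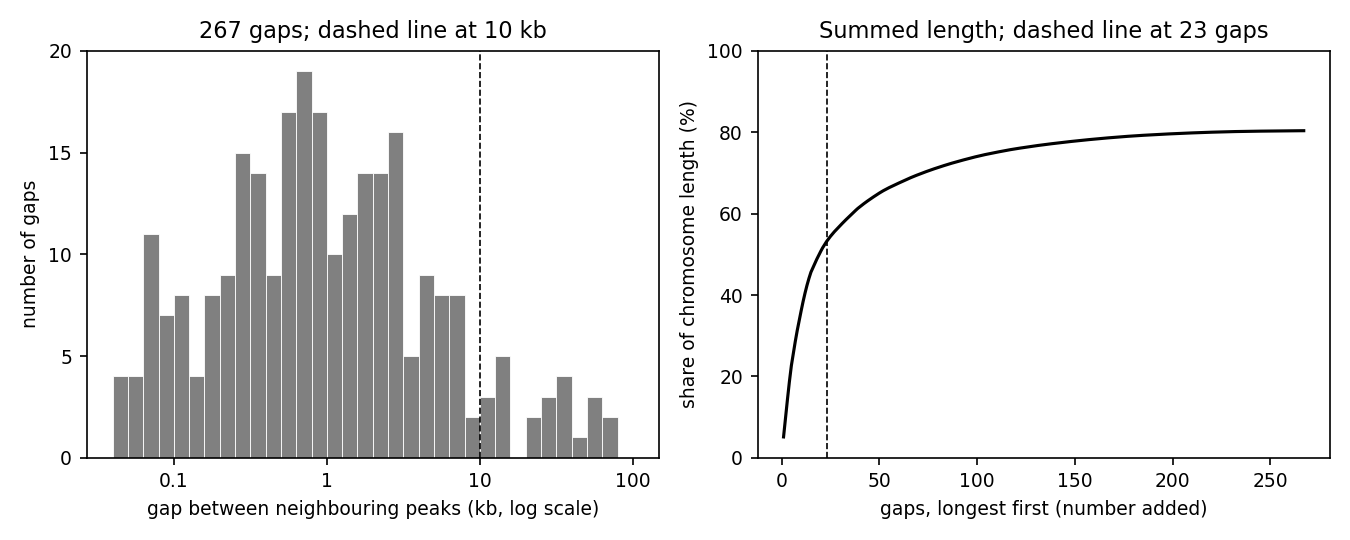
Left: number of gaps between neighbouring chromosome 4 peaks by length (kb, log scale), with a dashed line at 10 kb. Right: summed gap length as percent of the chromosome, adding gaps from the longest down, with a dashed line at 23 gaps. Most gaps lie under 5 kb, while the first 23 already sum to 53.1% of the chromosome.

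The longest stretch without a peak was 69.4 kb, from 713154 to 782597. It lay between peaks with low scores of 9.42 and 10.28. The second, of 64.2 kb from 502049 to 566209, had a peak scoring 12.84 on its centromeric side and one scoring 66.84 on its distal side. The third, of 60.8 kb from 397224 to 458015, was flanked by scores of 8.46 and 41.7. Such a stretch could therefore end at a high peak, although only 4 of the 23 had a flank at or above the list's upper quartile.

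The fourth stretch, of 59.2 kb from 817651 to 876888, began at the edge of a peak 4443 bp wide. The fifth, of 52.9 kb, ran from 1082389 to 1135256. The next 5 were between 32.5 and 40.4 kb long, beginning at 88138, 980551, 268982, 167313 and 889048. The 10 longest stretches together took up 36.1% of the chromosome. None of them lay distal to 1135256.

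By midpoint, the 4 equal parts from the centromeric side held 6, 7, 7 and 3 of the 23 stretches. The 44 peaks at the edge of such a stretch had a median width of 403 bp and a median score of 15.3. The other 206 peaks of the interior, before 1.29 Mb, had medians of 586.5 bp and 20.01. Of the 23 stretches, 11 had peaks below the list's median score on both sides. A peak at or above the list's upper quartile stood beside 4 of them. Among all 250 interior peaks, 22% reached that quartile and 44.4% reached the list's median. A stretch without a peak is one in which the caller listed none, which is not a measurement that HP1 was absent there. How many reads could be placed in these stretches was not tested.

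Between the long stretches, the 24 groups of peaks took up 633564 bp, 46.9% of the chromosome, and peaks covered 41.9% of that. The median group spanned 12.2 kb and held 8 peaks. The group sizes ran from a single peak to 61 peaks. The largest group reached from 1169718 to the end of the last peak, a span of 182.2 kb without any gap of 10 kb. The next largest was the first, from 23 to 74642, with 25 peaks and 43.6% of its bases covered. In the middle of the chromosome, the group from 921549 to 956393 held 19 peaks, among them the highest score away from the distal end, 81.5. The group from 1035083 to 1082388 held 18 peaks over 47.3 kb and was more thinly covered, at 25.1%.

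The highest score within a group had a median of 45.0 over the 24 groups. It was lowest, at 15.6, in a group that was a single peak of 218 bp from 1020270 to 1020487. The other single-peak group was a peak of 520 bp from 268462 to 268981, with a score of 16.45. Counting every peak with no neighbour within 5 kb, 3 more were found. They lay from 51387 to 51795 with a score of 24.9, from 128569 to 128768 with 6.74, and from 1237755 to 1238027 with 11.5. These 5 peaks far from others were all 520 bp wide or less. Such widths are common, since 44.4% of all chromosome 4 peaks were under 500 bp.

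At a finer scale, peaks up to 1 kb apart were joined into 122 domains. Of these, 60 were a single peak, 48 held 2 to 4 peaks and 14 held 5 or more. Single peaks were narrower and scored lower, with medians of 379.5 bp and 15.6, while the peaks in larger domains had a median score of 21.9. The 10 domains with the most covered bases made up 41.4% of all covered bases on the chromosome.

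The first 3 of those 10 domains lay at the ends of the chromosome. The domain from 1324173 to 1351935 spanned 27763 bp in 7 peaks and was 92.0% covered. That from 1280774 to 1306377 spanned 25604 bp in 9 peaks and was 91.3% covered. On the centromeric side, the domain from 6452 to 24014 spanned 17563 bp in 6 peaks and was 95.8% covered. The remaining 7 lay between these ends and were smaller, with 4872 to 7734 covered bases each.

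The largest of those interior domains ran from 876889 to 886680, with 5 peaks and a highest score of 55.9. It started at the distal edge of the 59.2 kb stretch described above. The domain from 670237 to 678894 held 7 peaks with a highest score of 67.5, and that from 931627 to 941986 held 8 with 45.3. The domain from 611216 to 616886 was nearly unbroken, with 2 peaks and 98.8% of its bases covered. The other 3 began at 158310, 382427 and 68724.

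The distal end past 1.29 Mb had been singled out for its high scores, so its scores are given as a description. By midpoint it held 18 peaks in 61.9 kb, a density of 290.6 peaks per Mb against 193.8 in the interior. Covered bases made up 75.8% of it and 16.9% of the interior, a difference of 58.9 percentage points. The median peak was 825 bp wide in the distal end and 545.5 bp in the interior. The median score was 43.05 in the distal end and 18.8 in the interior.

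That median hides a division among the distal peaks. In order of score, the ninth of the 18 had 27.5 and the tenth 58.6, with no peak between them. Without the highest peak, the difference from the interior's median fell from 24.2 to 8.63 score units. With the limit moved distally by 10 kb, it was 6.84. The difference in covered share moved less, to 56.0 percentage points with that limit.

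Of the 18 distal peaks, 7 scored at least 100, against 1 of the 250 interior peaks. In the distal end, 9 peaks scored at least 50, against 21 (8.4%) in the interior. Yet 4 distal peaks scored below the interior's median. High and low scores were thus interleaved at the distal end, at gaps as short as 61 bp.

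The sequence of peaks shows this pattern. The first distal peak, from 1288359 to 1291747, straddles the limit and scored 100.7. After a peak scoring 27.5, the peak from 1293222 to 1298121 scored 196.9, second on the chromosome. Just 662 bp further, a peak of 6958 bp from 1298784 to 1305741 scored 157.35.

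Then followed a stretch of weaker peaks. The next 5 peaks, from 1305803 to 1313629, were 451 to 832 bp wide and scored 15.1 to 25.9. Directly after them, at a gap of 69 bp, came the highest peak of the list, 3556 bp wide from 1313699 to 1317254. After it lay a gap of 4329 bp, the longest of the distal end, and a narrow peak from 1321584 to 1321864 with a score of 7.99, the lowest there.

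The 2 widest peaks of the chromosome followed. The first of them, 11009 bp from 1324173 to 1335181, scored 172, and the other, 10988 bp from 1337221 to 1348208, scored 161.1. A peak of 608 bp with a score of 58.6 lay between them. Then came peaks scoring 70.95, 13.9 and 24.4. The last peak of the chromosome, from 1350298 to 1351935, scored 159.4 at a width of 1638 bp. Whether the end of the sequence cut that width short was not tested.

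**Figure D3:**
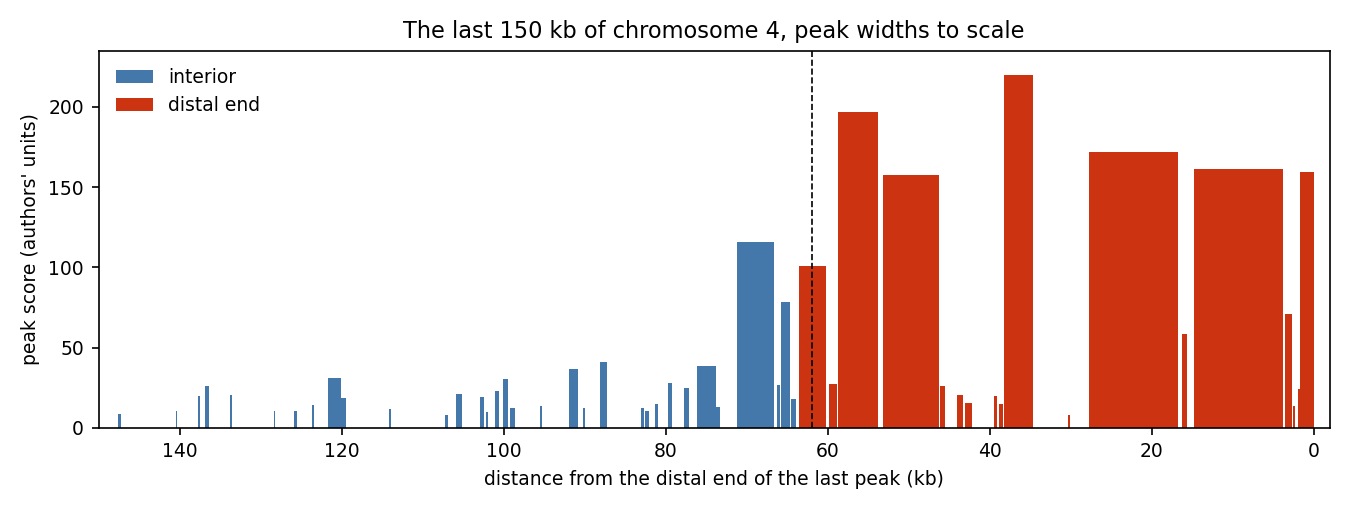
The last 150 kb of chromosome 4, plotted against distance from the distal end of the last peak (kb). Each bar is 1 peak, its width to scale and its height the authors' score, coloured by interior or distal end, with a dashed line at the limit of 1.29 Mb. The step in score lies before the dashed line, at the peak scoring 115.85, and not at it.

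The high scores began before the 1.29 Mb limit. In 10 kb bins, covered bases made up 30.2% from 1260 to 1270 kb, 44.5% from 1270 to 1280 kb, and 82.8% from 1280 to 1290 kb. The step in score lay at the peak from 1280774 to 1285347, which scored 115.85. It is the interior's highest peak, and the peak before it scored 13.07. The limit thus runs through a domain, and the same dense block can be drawn from 1280774 onward.

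That block, with bounds chosen after the values were seen, held 22 peaks in 71.2 kb and was 77.6% covered. It included 9 of the 10 highest scores of the chromosome and 6 of the 10 widest peaks. The exception among the scores was the peak from 946142 to 947393, 1252 bp wide, with 81.5. The block's peaks made up 20.8% of the covered bases of chromosome 4. Within it, the 17.8 kb between its 2 large domains were 35.5% covered, although the highest score of the list lies there.

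The centromeric end was as densely covered, with lower top scores. Its first 8 peaks, from 23 to 24014, covered 88.1% of 24.0 kb. In order of position, they scored 45.97, 53.7, 52.4, 13.5, 49.8, 41.04, 71.7 and 38.1. All but the fourth scored above the list's upper quartile, and none reached 100. Their median score was 47.9, above the 43.05 of the distal block, whose highest score was 220.1. The seventh, from 13596 to 22508, was 8913 bp wide and the third widest of the chromosome. Past 24014, the next peak came after 6252 bp, and 9.31% of the bases from 25 to 50 kb were covered.

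The first and last 25 kb were thus close in coverage and apart in score. Covered bases made up 84.6% of the first and 91.1% of the last. Their median scores were 47.9 and 70.95, and their highest 71.7 and 172. The difference between these ends rests on 8 and 7 peaks and has no replicate check. From 25 to 1280 kb, the 238 remaining peaks covered 15.1% of the sequence and had a median score of 18.2.

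Wide peaks scored higher, so width was taken into account. The rank correlation of width and score was 0.81 over the 268 peaks, 0.81 over the 250 interior and 0.86 over the 18 distal peaks. It was 0.85 over the Het peaks and 0.88 over those of the inner 1 Mb of the large arms. Both measures come from the same reads and neighbouring peaks are not independent, so it is given as a description. Among peaks of 3000 bp or more, the 6 distal ones scored 100.7 to 220.1. The 6 interior ones scored 32.5 to 115.85. These ranges overlapped only through the interior peak at 1280774, which lies in the distal block.

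Narrow peaks differed less. From 200 to under 500 bp, the median score was 15.1 for 5 distal peaks and 13.07 for 114 interior peaks. From 500 to under 1000 bp, it was 26.7 for 6 distal peaks and 20.96 for 69 interior peaks. At 1000 to under 3000 bp, the single distal peak scored 159.4, while 61 interior peaks ran from 17.3 to 81.5. That distal peak is the last of the chromosome, so its width, and with it its class, may be incomplete. The high scores of the distal end therefore belonged to its wide peaks and to the last peak, and its narrow peaks lay within the range of the interior, apart from 70.95, the highest among peaks under 1000 bp.

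**Figure D4:**
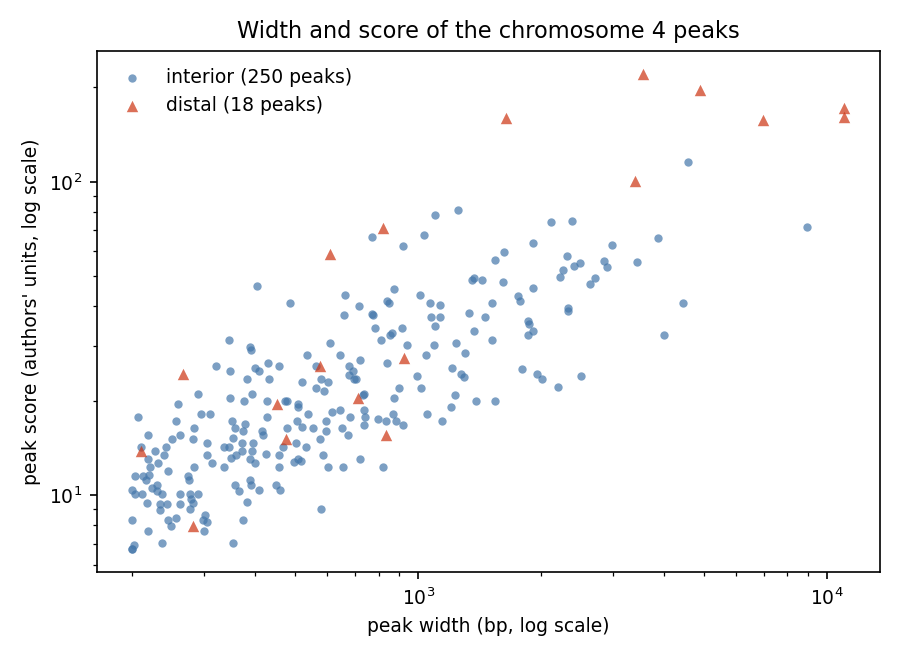
Width (bp, log scale) against the authors' score (log scale) for the 250 interior peaks (circles) and the 18 distal peaks (triangles) of chromosome 4. Scores rise with width in both. Of the 7 distal peaks that score 100 or more, those of 11009 and 10988 bp are wider than any interior peak. The distal peak of 6958 bp has no interior peak of like width either, the nearest being 4574 and 8913 bp. The others of the 7 lie above the interior peaks of like width. Whether the width of the last peak, 1638 bp, is complete was not tested.

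The other interior peaks among the widest were less highly scored. The peak from 813208 to 817650, 4443 bp wide, scored 41.04. That from 69088 to 73070, 3983 bp wide, scored 32.5, the lowest of any chromosome 4 peak of 3000 bp or more. The peak from 218478 to 222340, 3863 bp wide, scored 66.0. Conversely, high interior scores came at moderate widths, with 74.7 at 1173761 to 1176135 and 74.6 at 953294 to 955406, both under 3000 bp.

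The outer ends of the large arms, over the same 61.9 kb, were more thinly covered. They held 1 peak on 2L, 1 on 2R, 3 on 3L, 6 on 3R and 4 on X. Covered bases made up 0.875% on 2R, 6.58% on 3R, 8.24% on 2L, 19.4% on X and 33.3% on 3L. Their median scores were 94.5 on X, 79.1 on 3R, 67.8 on 2R, 47.4 on 2L and 11.5 on 3L, against 43.05 in the distal end of chromosome 4, which was thus lower than 4 of these 5 ends by this measure. The highest score at these ends was 145.9, on X, against 220.1 on chromosome 4, whose end had been singled out for its high scores. The outer end of 2R, 3R and 4 was taken as the last peak, which places a peak there by construction.

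Chromosome 4 was set beside the separately assembled Het sequences and the inner 1 Mb of the 5 large arms. Chromosome 4 had fewer covered bases than either pool, 19.6% against 33.3% in the Het sequences and 32.3% in the inner arms. Peaks per Mb were 198.2, against 306.6 and 219.8. Median scores lay between 19.07 and 22.4 in all 3. They also differed in peak-free sequence, counted between neighbouring peaks of each sequence or window. Stretches of 10 kb or more took up 53.1% of chromosome 4, 27.1% of the Het sequences and 37.6% of the inner arms.

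These pooled values hide wide differences, and there was no test of them. Single Het sequences ranged from 19.0% in such stretches on 3LHet to 74.8% on YHet. In the inner arms, the range was from 2.21% on 2R to 85.7% on 3R. Chromosome 4 thus lay inside the range of both. Its covered share, 19.6%, did so too. Covered bases ranged from 2.42% on YHet to 42.8% on 3LHet, and in the inner arms from 1.62% on 3R to 62.4% on 2R. Peaks per Mb ranged from 34.6 on YHet to 385.8 on 2LHet, and in the inner arms from 19 on 3R to 379 on 3L. The median gap of chromosome 4, 854 bp, also lay inside both ranges, which were 446 bp on 2LHet to 20411 bp on YHet and 375.5 bp on 2R to 6243.5 bp on 3R.

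Peaks of 3000 bp or more were less frequent in the interior of chromosome 4 than in the pooled Het sequences or inner arms. They made up 2.4% of the peaks there, 8.05% in the Het sequences and 12.6% in the inner arms. Over the whole of chromosome 4, distal end included, the share was 4.48%. Not every single sequence had more than the interior. On XHet, the widest of the 32 peaks was 2882 bp, so none reached 3000 bp. At that width the median score was 60.8 in the interior, 67.4 in the Het sequences and 77.5 in the inner arms. The 6 distal peaks of that width had a median of 166.5. The highest scores at that width were 189.85 in the Het sequences and 168.5 in the inner arms, so single peaks there reached the distal range.

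**Figure D5:**
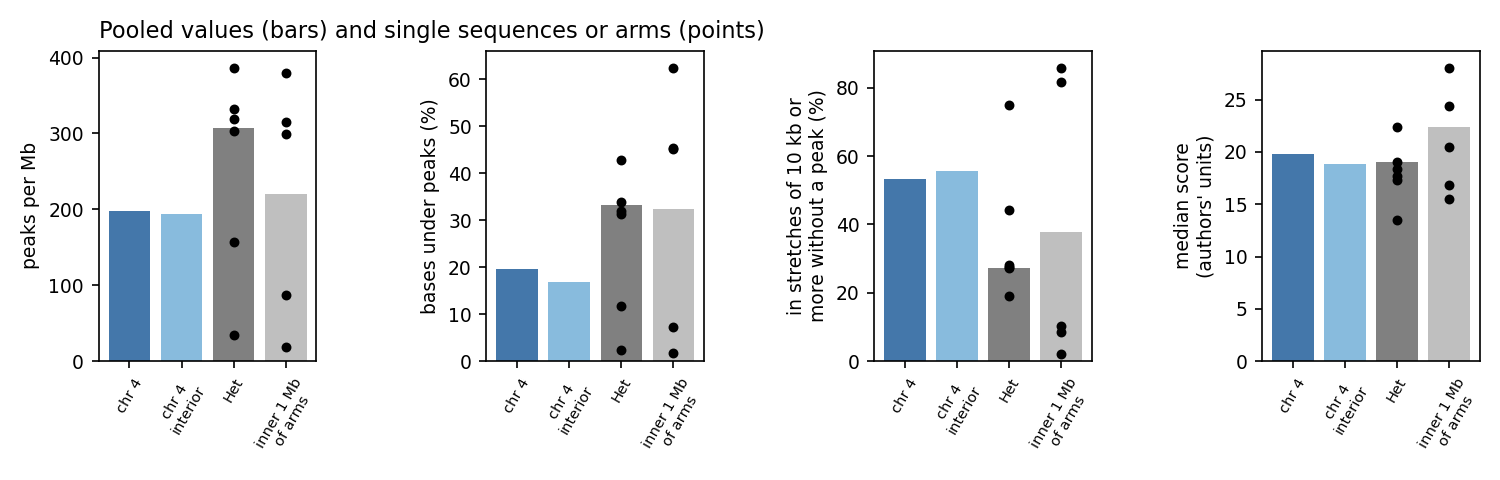
Peaks per Mb, percent of bases under peaks, percent of sequence in stretches of 10 kb or more without a peak, and median score (authors' units) for chromosome 4, its interior, the Het sequences and the inner 1 Mb of the large arms. Bars are pooled values and points the single Het sequences or arms. The bar for peak-free sequence is highest for chromosome 4 (53.1%) and its interior (55.7%), while the points spread widely.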

How the data were processed

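The authors deposited a single list of HP1 peaks, with positions in FlyBase release 5 and peak names beginning with MACS, per the file headers. The submitters' processing notes name MACS2, BWA, CASAVA (1.7.0.2, 1.7.0.3) and build BDGP5. Each peak has a deposited score of unstated definition. Not given in the sources used here are the parameters, the calling threshold, how reads from repeats were placed and whether replicates were pooled. The depth per sample is unknown.

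The lowest start in the list is 0, so starts were read as counting from 0 and are printed from 1. A peak belongs to the window that holds its midpoint, while covered bases were clipped at window limits. The length of chromosome 4, of each large arm and of each Het sequence is the end of its last peak. Neighbouring peaks up to 1 kb apart were joined into domains. Gaps are the bases between neighbouring peaks. Named regions are the 10 highest scores, the 10 widest peaks, the 10 longest gaps, the 10 domains with most covered bases, the peaks past 1.29 Mb and the extreme bins. The ends described as blocks, the single peaks far from others and the remaining named peaks were chosen after their values were seen. Members and lists were chosen with earlier results of these data known. The interval functions were tested on simulated data. Python 3.11.15, pandas 2.3.3, numpy 2.4.6 and scipy 1.17.1 were used.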

Additional observations from a re-analysis of the deposited data

How the results depend on the processing

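Keeping only peaks at or above the list's median or upper-quartile score gave 90.98 and 47.3 peaks per Mb, 14.95% and 10.9% of bases covered, median widths of 1096 and 1630 bp, median scores of 36.01 and 49.3, and median gaps of 2113 and 4214 bp. At the upper quartile, peak-free stretches of 10 kb or more summed to 1099 kb, and the distal covered share exceeded the interior's by 60.1 points. Merging peaks up to 1 kb apart gave 90.2 per Mb, a median width of 1410 bp and a median score of 23.4. A merged region took the highest score of its peaks, so its score is not comparable with that of a single peak. Merging gave distal minus interior differences of 148.6 in score and 3460 bp, over few distal regions. The domain from 1280774 to 1306377, which holds the interior peak scoring 115.85, then counted as distal. Without merging, the distal minus interior differences of mean log2 score and width were 1.24 and 1.01. With only peaks at or above the list's median or upper quartile, the differences of medians were 95.01 and 112.2 in score and 1437.5 and 2014 bp in width, against 24.2 and 279.5 bp over all peaks. Without the distal end, 16.9% of bases were covered. The covered difference was 60.4 points with the limit 10 kb nearer the centromere, 56.0 with it 10 kb more distal and 60.3 without the first 100 kb. Stretches of at least 5 kb numbered 41 and of at least 15 kb 15. Joining gaps up to 5000 bp left 42 domains. In 10 kb and 50 kb bins, the highest covered share was 97.35% and 72.6%, and 37.8% and 3.70% of complete bins were empty. The highest peak count in a 10 kb bin was 7. The distal end was singled out for high scores, so the sign of its differences is no sign of stability. Filters and merging change these values by their own construction. Another chromosome length was not run, since the list gives none. No replicate could be left out. No paired analysis was possible because the list does not separate the replicates.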
